A study of Bos taurus with 35 samples.

Results

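TPM2, DUSP27 and PPP1R3C are 3 genes linked to skeletal muscle that were read here in fat and in muscle of Hanwoo cattle. They were taken by identifier from count tables of 24596 genes: TPM2 is ENSBTAG00000011424, DUSP27 is ENSBTAG00000008652 and PPP1R3C is ENSBTAG00000014831. The study had picked the 3 genes for qRT-PCR among genes higher in intramuscular fat, on the same samples, so a higher level in that fat is how they were chosen and is given below as a description. For DUSP27 the study's own naming is uneven: its primer list has DUSP27 and the identifier used here, while its list of qRT-PCR results has DUSP23 in that place, so whether its assay read DUSP27 is not certain. Muscle played no part in that choice.

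The 34 RNA-seq libraries were 9 of omental fat (O), 9 of subcutaneous fat (S), 8 of intramuscular fat (I) and 8 of muscle, from 9 untreated animals of 30 months on one feeding station. The labels give replicates 1, 4 and 7 as female, 2, 5 and 8 as castrated male and 3, 6 and 9 as male, whereas the study's methods speak of steers. S and I came from one rib section and O from beside the abomasum, and the methods say that muscle and fat of that section were removed together after slaughter, without saying from which piece the muscle RNA was made. I of replicate 9 and muscle of replicate 7 were not analysed here, so 7 animals had all 4 tissues. Each library is bulk RNA of a piece of tissue, in which fewer cells of a type and less RNA per cell cannot be told apart.

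Counts on genes ran from 3726376 to 7184022 per library, and levels are given in CPM, the counts of a gene scaled to a common library total, after TMM scaling, which adjusts that total so that most genes are level between libraries. TMM factors were 1.014 to 1.289 in fat and 0.5235 to 0.7466 in muscle. Without TMM the median gene shifted by -0.79 (log2) in muscle against I, by -0.97 against O and by -0.94 against S, so changes against muscle are relative to the other genes. The library labelled muscle of replicate 4 went against its label: 5 genes that were near 0 in O and S of the females and high in the males summed to 210.5 CPM in it, against at most 0.416 CPM in the 10 other libraries labelled female and 114.5 to 262.9 CPM in the 23 labelled castrated male or male. Shares after TMM that rest on that library, and fold changes whose call or direction it alters, are given with and without it. Of 146 genes in lists of markers and pathways, 6 could be paired with an identifier, and none of 30 markers of muscle fibres and none of 10 of adipocytes, so the tissue labels were not checked by markers.

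Tropomyosins are coiled-coil proteins that lie along actin filaments. In striated muscle they work with troponin to let calcium switch contraction on, and TPM2 encodes the beta chain, found in muscle fibres and also in smooth muscle and other contractile cells. DUSP27, named STYXL2 in newer annotation, belongs to the dual-specificity phosphatase family, lacks a working catalytic site and is known from the sarcomeres of striated muscle. PPP1R3C, also called PTG, binds protein phosphatase 1 to glycogen, where the enzyme activates glycogen synthase, and it is used in muscle, liver and fat.

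The qRT-PCR primers that the study lists under the 3 names are shown because its primer list is what ties each name to the identifier counted here. They are printed 5′ to 3′, in lower case, with no base marked.
TPM2 forward: agagtttgctgaaaggtcggtg
TPM2 reverse: atggaaaggagaagagagagggg
DUSP27 forward: ggtcaaggaagatgaggatgagg
DUSP27 reverse: cagggaggagaaggtgtctgttt
PPP1R3C forward: ggggactgtgaaggtgaagaaca
PPP1R3C reverse: ggtaggtcaatggcaaacgagaa
The primers were 22 or 23 bases long, with 11 or 12 bases of G or C. Their places in the genome were not looked up, since no genome of the build of the files was used here.

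TPM2 was lowest in O and S, intermediate in I and highest in muscle, and only O and S overlapped. For each member, the share of all genes without such overlap is not given here, so lack of overlap is a description. Muscle averaged 33380 ± 10200 CPM (SD, n = 8), I averaged 1472 ± 392 CPM (SD, n = 8), and the 9 libraries each of O and S averaged 162 ± 41.0 and 152.4 ± 70.3 CPM (SD). Libraries of O lay between 102.2 and 246.6 CPM with a median of 156.2, and those of S between 70.68 and 262.2 CPM with a median of 168.2. So TPM2 was well read in fat outside the muscle too, on 442 to 1999 counts a library. I ran from 838.9 CPM in replicate 3 to 2023 CPM in replicate 5, with a median of 1454. Muscle ran from 21910 CPM in replicate 1 to 51130 CPM in replicate 5, with a median of 30480.

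DUSP27 was all but unread in O and S, low in I and high in muscle. O held 1 count in all 9 libraries together, from replicate 6, and S held 5 counts, of which 2 were in replicate 9 and 1 each in replicates 2, 5 and 6. All 18 of these libraries were therefore under a floor of 3 counts, which was 0.355 to 0.565 CPM there, and the floor covers counting error only. At this depth DUSP27 was not detectable above that level in O or S. In I it was counted 6 to 153 times in each of the 8 libraries, which was 9.166 CPM in replicate 1, 7.928 in replicate 2, 1.049 in replicate 3, 2.065 in replicate 4, 11.06 in replicate 5, 7.384 in replicate 6, 9.899 in replicate 7 and 25.84 in replicate 8. The highest of these libraries was 24.6-fold above the lowest, while the same ratio was 2.41-fold for TPM2 and 4.59-fold for PPP1R3C in I. Muscle ran from 410.5 CPM in replicate 8 to 813.8 CPM in replicate 9, with a mean of 630.1 ± 153 CPM (SD, n = 8) and no overlap with I.

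PPP1R3C had a different order, with I and muscle together above O and S. It averaged 241.3 ± 94.4 CPM in muscle and 233.9 ± 104 CPM in I (SD, n = 8 each), and 45.27 ± 11.3 CPM in S and 37.14 ± 8.02 CPM in O (SD, n = 9 each). The level in I was 154.3 CPM in replicate 1, 452 in replicate 2, 185.3 in replicate 3, 216.9 in replicate 4, 253.8 in replicate 5, 248.3 in replicate 6, 98.39 in replicate 7 and 262.5 in replicate 8. The level in muscle was 168.5 CPM in replicate 1, 251.3 in replicate 2, 350.8 in replicate 3, 151.5 in replicate 4, 273.4 in replicate 5, 262.1 in replicate 6, 103.2 in replicate 8 and 369.5 in replicate 9. I and muscle overlapped over most of their range, and no library of either fell into the range of O or S, 28.94 to 53.52 CPM and 26.52 to 64.19 CPM.

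**Figure D1:**
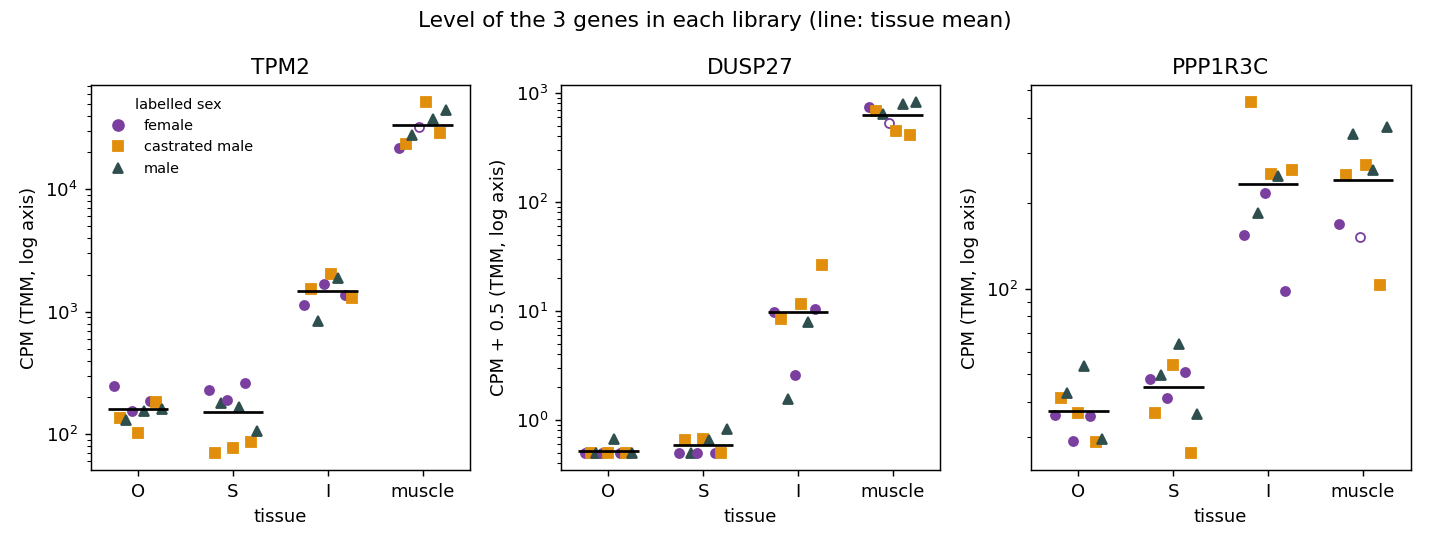
Level of each gene by tissue in CPM after TMM on log axes, 1 point per library, with 0.5 CPM added for DUSP27 so that libraries at 0 can be drawn. Lines are tissue means, colours and shapes give the labelled sex, and the open point is the library labelled muscle of replicate 4. TPM2 and DUSP27 are highest in muscle, while PPP1R3C in I (98.39 to 452 CPM) overlaps muscle (103.2 to 369.5 CPM).

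In I against O, TPM2 was 9.236-fold higher (log2 3.21, SE 0.20, adjusted p = 4.41e-10) and PPP1R3C was 6.402-fold higher (log2 2.68, SE 0.23, adjusted p = 3.01e-08) by edgeR's quasi-likelihood test. In the same contrast 32.8% of 13156 genes were called at an FDR under 0.01, so a call here is common, and the direction of the 3 genes is how the study chose them. In I against S, TPM2 was 9.871-fold higher (log2 3.30, SE 0.28, adjusted p = 3.38e-08) and PPP1R3C 5.286-fold (log2 2.40, SE 0.24, adjusted p = 2.29e-07), with 32.7% of 13077 genes called. These contrasts share the I libraries and are not independent of each other. Each gene was higher in I than in O and in S of the same animal in 8 of 8 animals.

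The size of that difference varied between animals. TPM2 in I was 4.62-fold above O in replicate 1 and 19.8-fold in replicate 5, with a median of 9.08 over 8 animals. PPP1R3C in I was between 2.76-fold above O in replicate 7 and 10.9-fold in replicate 2, with a median of 5.78. DUSP27 had too few counts in O and S for the count filter, so it was fitted without that filter, after the data were seen. By edgeR its level in I exceeded that in O by a log2 fold change of 7.98 (SE 0.74) and that in S by 6.52 (SE 0.67). Those fitted values depend on the prior count. Without the filter, 4900 of 19611 genes were called against O and 4887 of 19643 against S, at an FDR under 0.01. The study had chosen DUSP27 as higher in I from these samples. Its fold changes over O and S are therefore descriptions, and no call is drawn from them. From the summed counts, 449 in I and 1 in O, the ratio was 540 with a 95% counting interval of 96.4 to 21400, and against the 5 counts in S it was 113 (48.1 to 350). Such intervals leave out the spread between animals, and 153 of the 449 counts came from replicate 8.

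O and S did not differ detectably for TPM2 or PPP1R3C, and DUSP27 was not tested there. The log2 fold change of TPM2 in O against S was 0.09 (SE 0.24, adjusted p = 0.888), an interval of 0.7732- to 1.467-fold, and that of PPP1R3C was -0.29 (SE 0.15, adjusted p = 0.308), an interval of 0.6658- to 1.009-fold, by edgeR. Of 12966 genes, 3.32% were called. PPP1R3C was lower in O than in S in 7 of 9 animals, and with the animal as a block its adjusted p was 0.0494, above the threshold of 0.01.

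Against muscle the 3 genes parted. In muscle against I, TPM2 was 22.66-fold higher by edgeR (log2 4.50, SE 0.34, adjusted p = 1.24e-09), in 7 of 7 animals with both tissues. In that contrast 59.8% of 12447 genes were called. DUSP27 was 68.3-fold higher (log2 6.09, SE 0.48), also in 7 of 7 animals. It passed the count filter here through muscle, since the libraries of I did not carry it past the filter against O or S. Its fold change over I is therefore a description. PPP1R3C differed by a log2 fold change of 0.05 (SE 0.29, adjusted p = 0.875), an interval of 0.7043- to 1.528-fold, and its direction turned with the scaling, to -0.76 (adjusted p = 0.0142) without TMM, to -0.20 with the animal as a block and to -0.02 without the library labelled muscle of replicate 4. By animal, PPP1R3C was higher in muscle than in I in 4 of 7 animals after TMM and in 1 of 7 without it. These 7 animals include replicate 4, whose muscle library went against its label. In that pair PPP1R3C in I was 1.43-fold the level in muscle after TMM. So whether muscle or I held more PPP1R3C relative to other genes was not settled by these libraries.

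Muscle stood above both O and S for TPM2 and PPP1R3C by test, and for DUSP27 by its counts. In muscle against O, TPM2 was 198-fold higher (log2 7.63, SE 0.31, adjusted p = 7.67e-15) and PPP1R3C 6.24-fold (log2 2.64, SE 0.22, adjusted p = 1.22e-09), where 63.4% of 12878 genes were called. In muscle against S, TPM2 was 213.7-fold higher (log2 7.74, SE 0.40, adjusted p = 5.23e-13) and PPP1R3C 5.215-fold (log2 2.38, SE 0.23, adjusted p = 1.39e-08), where 62.7% of 12707 genes were called. DUSP27 passed the count filter in these comparisons through muscle alone, so a call was given by that filter, and its fitted log2 fold changes of 13.80 against O and 12.50 against S, which depend on the prior count, are descriptions. Its summed counts, 15868 in muscle, gave a ratio over O of 36600 (95% counting interval 6560 to 1440000) and over S of 7660 (3280 to 23600). Leaving out the library labelled muscle of replicate 4 ended none of these calls.

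**Figure D2:**
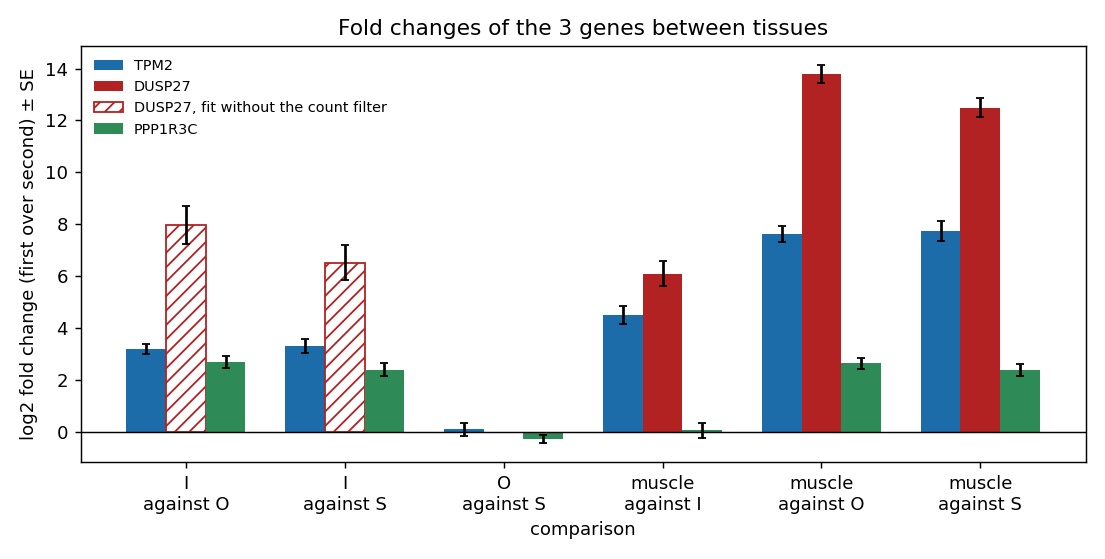
Log2 fold changes of the 3 genes in 6 comparisons of tissues, first over second, with the standard error as bars. DUSP27 was not tested in O against S, and the hatched bars are fits without the count filter. PPP1R3C stands at 0.05 in muscle against I and near 2.5 in the comparisons of I or muscle with O and S, and TPM2 stands near 0 in O against S.

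I lies inside muscle, so the level of each gene in I was set against the muscle of the same animal. For each of the 7 animals with all 4 tissues, the level in I above the mean of O and S was divided by the level in muscle. The same share was taken for 208 reference genes, whose mean in muscle was 10 CPM or more and 100-fold or more above both O and S. TPM2 and DUSP27 met this rule too, at 206-fold and 7110-fold above the higher of O and S, and were left out of the set. I was not used to pick the reference genes. The rule stands in for the muscle fibre markers, which could not be identified, and 1 of the 208, EEF1A2, a translation elongation factor of muscle and nerve, has a name here. The reference genes summed to 309.9 to 522.3 CPM in O, 276.3 to 503.8 CPM in S, 1548 to 15560 CPM in I and 367800 to 749000 CPM in muscle. All 8 libraries of I thus lay above every library of O and S.

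The median share of the reference genes in I was 1.2% in replicate 1, 1.07% in replicate 2, 0.153% in replicate 3, 0.233% in replicate 4, 2.37% in replicate 5, 1.54% in replicate 6 and 4.19% in replicate 8. Replicates 3 and 4 were lowest and replicate 8 highest, and the quartiles of the reference genes in replicate 1, for example, were 0.854% and 1.77%. DUSP27 went with this share. Its own was 1.24% in replicate 1, 1.16% in replicate 2, 0.166% in replicate 3, 0.389% in replicate 4, 2.44% in replicate 5, 0.919% in replicate 6 and 6.3% in replicate 8. Divided by the reference median this was 0.595 in replicate 6 to 1.67 in replicate 4, with a median of 1.08. Without replicate 4 the highest was 1.5 and the median 1.06. In replicate 6, 175 of the 208 reference genes had a higher share than DUSP27, and in the other animals 66 to 100 did.

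The share of TPM2 varied less between animals than the median share of the reference genes did. Its share was 4.1% in replicate 1, 6.09% in replicate 2, 2.46% in replicate 3, 4.72% in replicate 4, 3.78% in replicate 5, 4.58% in replicate 6 and 4.01% in replicate 8. The mean was 4.25 ± 1.1% (SD, n = 7), whereas the reference median had a mean of 1.54 ± 1.4% (SD, n = 7). TPM2 was thus 20.3 times the reference median in replicate 4 and 16.1 times in replicate 3, where the reference genes were lowest, and 0.957 times in replicate 8, where they were highest. Without replicate 4 the mean share of TPM2 was 4.17 ± 1.18% (SD, n = 6) and that of the reference median 1.75 ± 1.39% (SD, n = 6). Between 13 and 17 of the 208 reference genes had a higher share than TPM2 in replicates 1, 2, 3, 4 and 6, against 70 in replicate 5 and 108 in replicate 8. The study chose TPM2 as higher in I, and I was not used to pick the reference genes. A share of TPM2 above theirs is therefore a description.

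The same values can be read as CPM. At the reference share, the level of TPM2 in I would have been 502 CPM in replicate 1, 356 in replicate 2, 197 in replicate 3, 247 in replicate 4, 1300 in replicate 5, 743 in replicate 6 and 1350 in replicate 8. The levels observed were 1138, 1538, 838.9, 1684, 2023, 1887 and 1296 CPM in the same order. The ratio of observed to that level was 0.961 in replicate 8 and 1.55 to 6.81 in the other 6 animals, with a median of 2.54. Without replicate 4 the highest ratio was 4.32 and the median 2.41. For DUSP27 the same ratio was 0.6 to 1.67 with replicate 4 and 0.6 to 1.5 without it. For PPP1R3C it was 3.5 to 10.8 with a median of 4.9, and 4.43 without replicate 4.

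PPP1R3C in I reached 66.6% of the muscle level in replicate 1, 164% in replicate 2, 39.6% in replicate 3, 120% in replicate 4, 76.3% in replicate 5, 72.3% in replicate 6 and 228% in replicate 8. At most 1 of the 208 reference genes had a higher share in any animal, and the share was 32.2 to 516 times the reference median, or 32.2 to 259 times without replicate 4. PPP1R3C is no gene of the reference kind, since its muscle level was 5.33-fold above the higher of O and S, and the study chose it as higher in I, so a share far above that of the reference genes was fixed by those levels and supports nothing further. Without TMM the medians over the animals rose to 137% for PPP1R3C, 7.02% for TPM2, 1.86% for DUSP27 and 2.04% for the reference genes, with TPM2 at 3.45, DUSP27 at 1.2 and PPP1R3C at 56.4 times the reference median. The values without TMM include replicate 4. These shares are descriptions with no test, and other ways in which a gene could be read in I were not tested.

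**Figure D3:**
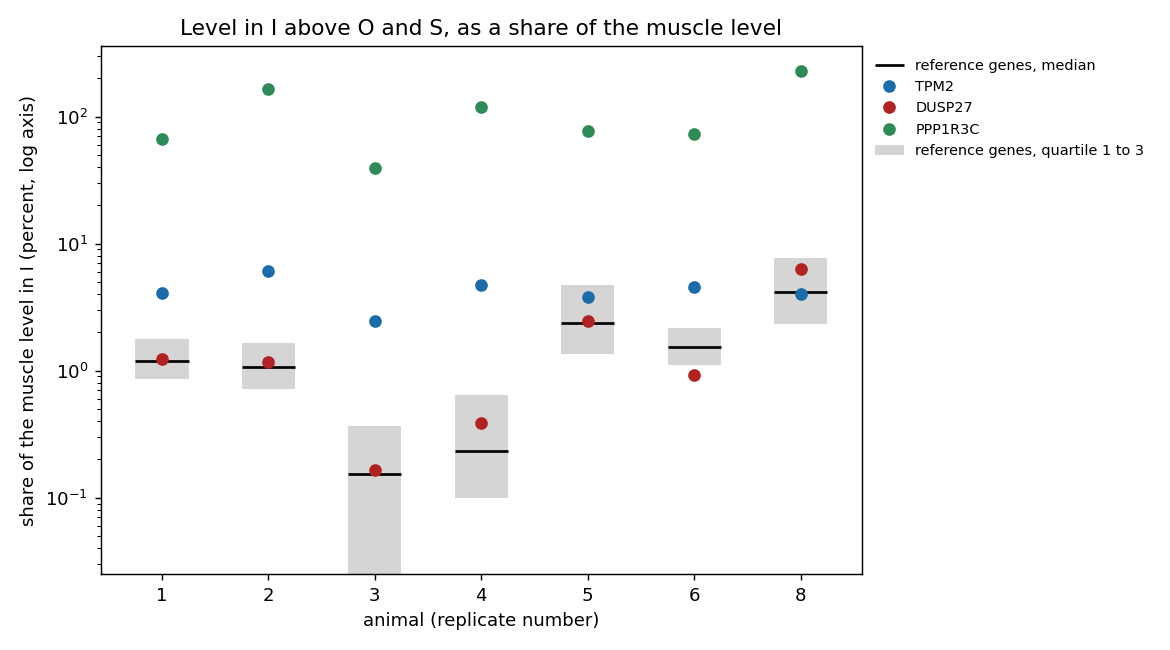
Level in I above the mean of O and S as a percentage of the level in muscle, on a log axis, for the 7 animals with all 4 tissues. Grey boxes span the quartiles of 208 reference genes of muscle and black lines are their medians, while points are the 3 genes. DUSP27 lies at 0.595 to 1.67 times the black line, TPM2 stays between 2.46% and 6.09%, and PPP1R3C lies between 39.6% and 228%.

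Over the 8 libraries of I, the log2 level of each gene was set against the log2 of the summed reference genes, among 18 relations computed in all. DUSP27 rose with the sum, with a Pearson r of 0.948 (exact permutation p = 0.00107, adjusted over the 18 relations 0.0193) and a Spearman rho of 0.905 (exact permutation p = 0.00456, adjusted 0.0652). Both adjusted values were above 0.01, the threshold used for genes here. Without replicates 3 and 4, the libraries farthest from the median sum, r was 0.663 over 6 libraries (exact permutation p = 0.129), so the relation rests in large part on those libraries. TPM2 gave r = 0.56 (exact permutation p = 0.149, adjusted 0.383) and rho = 0.429, and r was -0.01 without replicate 3 and 0.768 without replicate 4. PPP1R3C gave r = 0.07 (exact permutation p = 0.871, adjusted 0.879) and rho = 0.214. All tests were two-sided, and the p-values give how often a shuffled pairing of the libraries gave a correlation at least as strong. Each animal gave a single library of a tissue, so variation between animals and between libraries cannot be told apart.

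**Figure D4:**
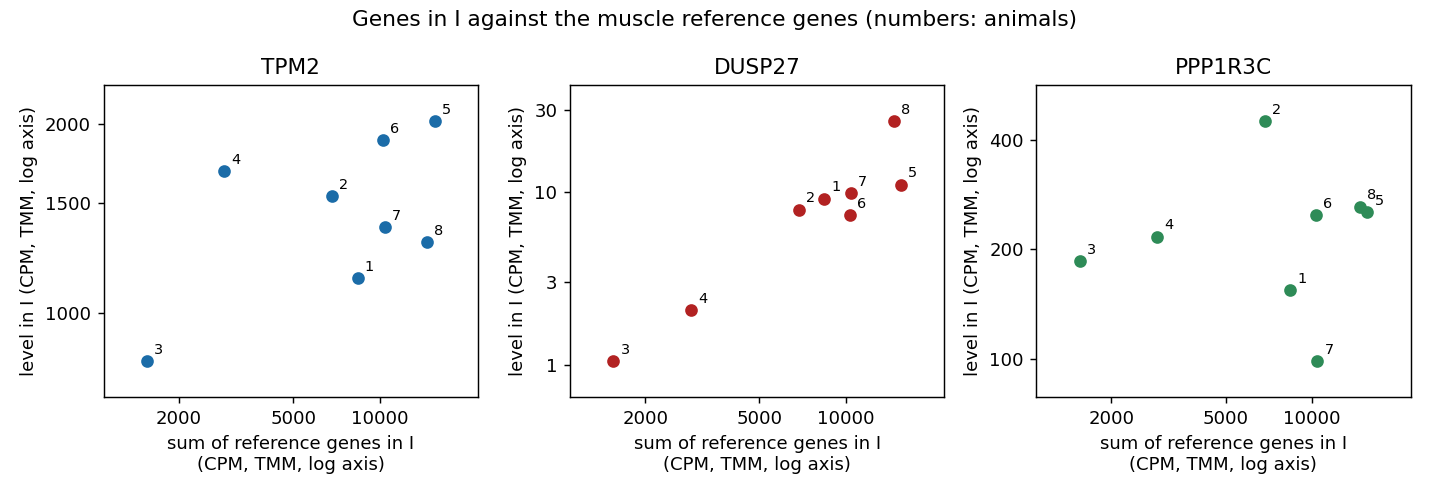
Level of each gene in I against the sum of the 208 reference genes in I, both in CPM after TMM on log axes, with 1 numbered point for each of 8 animals. DUSP27 climbs with the sum (r = 0.948), with replicates 3 and 4 at the low end, while TPM2 (r = 0.56) and PPP1R3C (r = 0.07) scatter.

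Within muscle, DUSP27 also varied with the reference sum (r = 0.838, exact permutation p = 0.00441, adjusted 0.0397, n = 8), and without replicates 8 and 9 r was 0.644 (exact permutation p = 0.189). Both values were scaled by the same TMM factor, which was 0.7466 in muscle of replicate 8 and 0.5235 in that of replicate 9. The part of this shared scaling in the relation was not tested. In I the 3 genes did not vary together detectably: r was 0.36 between TPM2 and PPP1R3C, 0.358 between TPM2 and DUSP27 and 0.109 between DUSP27 and PPP1R3C (n = 8 each, adjusted exact permutation p = 0.702, 0.702 and 0.879). Across tissues of one animal, PPP1R3C in O and in S had r = 0.715 (n = 9, exact permutation p = 0.0287, adjusted 0.172), and r was 0.358 without replicates 6 and 8. TPM2 in I and in muscle had r = 0.664 and rho = 0.821 (n = 7, exact permutation p = 0.1 and 0.0341, adjusted 0.383 and 0.205). Those 7 pairs include replicate 4, whose muscle library went against its label and may not be a true pair. None of the 18 relations, those of the same gene between tissues included, had an adjusted exact permutation p under 0.01.

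Other cell types could be read only through the few named genes. TNMD, tenomodulin, which marks tendon and is also made in fat and was the 1 of 11 markers of tendon and fibroblasts identified, had 51.8 ± 46.1 CPM in I (SD, n = 8), against 0.269 ± 0.293 in O and 0.333 ± 0.503 in S (SD, n = 9 each) and 2.05 ± 2.15 in muscle (SD, n = 8). CD163, a scavenger receptor of macrophages and 1 of the 2 identified of 4 macrophage markers, was lower in I, at 111 ± 45.4 CPM, than in O at 622 ± 181 and S at 566 ± 280. I thus differed from O and S in more than the 3 genes, and the part of these cell types in the results was not tested. None of 9 smooth muscle markers was identified, so smooth muscle as a source of TPM2 in any fat was not tested.

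By labelled sex, TPM2 in S was the clearest pattern. It was 189.3 to 262.2 CPM in the 3 females, 106.9 to 179.3 CPM in the 3 males and 70.68 to 86.76 CPM in the 3 castrated males. The unadjusted p was 0.000164 and the adjusted p 0.242 by edgeR's quasi-likelihood test over all genes, so it was not called, and 0.0377% of 13260 genes were. By the same test 1029 of those genes had an unadjusted p under 0.05. edgeR's likelihood ratio test gave an adjusted p of 6.5e-05, and how many of all genes it called was not recorded. In O, TPM2 was 196.2 ± 46.1 CPM in females, 140.8 ± 40.7 in castrated males and 149 ± 16.6 in males (SD, n = 3 each, adjusted p = 0.999 by edgeR), where 0.0372% of genes were called.

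PPP1R3C in I was 253.8 to 452 CPM in the 3 castrated males, above the 98.39 to 216.9 CPM of the 3 females and the 185.3 and 248.3 CPM of the males (adjusted p = 0.981 by edgeR, 0.0146% of genes called). In muscle it was 262.1 to 369.5 CPM in the 3 males, 103.2 to 273.4 CPM in the castrated males and 168.5 and 151.5 CPM in the libraries labelled female, of which the latter went against its label (adjusted p = 0.516 by edgeR, 0.00828% of genes called). DUSP27 showed no call by sex in I (adjusted p = 0.981 by edgeR) or in muscle (adjusted p = 0.727 by edgeR). The tests in muscle counted the library labelled muscle of replicate 4 as female, so they rest on a label that this library went against. No member passed the threshold for sex in any tissue where it was tested by the quasi-likelihood test.

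The genes whose log2 level went most like each member over the 34 libraries were looked up among 12731 others. TPM2 was most like ENSBTAG00000007068 (r = 0.992), with 447 genes at an r of at least 0.9, and DUSP27 most like ENSBTAG00000018267 (r = 0.996), with 0.9 or more reached by more genes than for TPM2. Both unnamed genes were at their highest in muscle, with means of 1210 and 827 CPM. PPP1R3C had only 20 genes at that r, and its most alike reached 0.938. Apart from the members, EEF1A2 was the named gene nearest to each, with r = 0.972 for TPM2, 0.964 for DUSP27 and 0.827 for PPP1R3C. TPM2 and DUSP27 were nearer to each other than to EEF1A2, at r = 0.976.

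Those values mostly restate the difference between muscle and fat. After each tissue's mean was subtracted, all 5 genes nearest to DUSP27 were reference genes of muscle, with r of 0.871 to 0.877, whereas none of the 5 nearest to TPM2 (0.693 to 0.723) or to PPP1R3C (0.728 to 0.768) was. Between members, that r was 0.01 for TPM2 with DUSP27, 0.30 for TPM2 with PPP1R3C and 0.19 for DUSP27 with PPP1R3C. The points share libraries and scaling, so these correlations are descriptions.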

How the data were processed

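RNA-seq of poly(A) RNA from O, S, I and muscle was read as one count table per library. Per the labels and the study's methods, the authors mapped paired-end reads to bosTau6 with TopHat2 2.0.2 and used HTSeq 0.5.3p3 to count reads on Ensembl genes, and deposited the raw counts without normalization. The strand setting is not given in the sources used here, so reads of overlapping genes on opposite strands, and reads shared by tropomyosin paralogs, could be split or lost. The 5 lines that name no gene held 63.28% to 71.14% of counts and were left out.

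Groups came from the labels, and replicate numbers mark the animal, from the animal number in the titles. Deviations of the same animal in O and S correlated at 0.264 to 0.739 (median 0.413), and in the other pairs of tissues the median was 0.0283 to 0.258. No library repeated another, since chi-square over its degrees of freedom was 12.04 or more in all 128 pairs within a tissue.

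Tests used edgeR 4.0.16 in R 4.3.3 (filterByExpr with a count minimum of 10, TMM, quasi-likelihood test over all genes, FDR under 0.01, no block). Standard errors are the absolute log2 fold change over the square root of F, and fold intervals use 1.96 SE. DESeq2 1.42.0, edgeR's likelihood ratio test, other scalings and filters, the block and left-out animals were alternatives. Correlations used scipy 1.17.1, with log2 values at a pseudocount of 0.5 CPM. Ratios of summed counts have exact binomial counting intervals at 95%, which leave out the spread between animals. The scripts were tested on simulated counts.

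The 3 genes and the lists were chosen with earlier results of these data known. Genes named are the members, the identified genes of the lists, and those most like each member by Pearson r over libraries (prior count 2, mean log2 CPM over 1), of which the text prints a part since only 31 genes pair with names. EEF1A2 was named after its values were seen.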

Additional observations from a re-analysis of the deposited data

Results flagged for a closer look

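Of 12 groups of libraries, 3 genes by 4 tissues, 3 held a library far from the others. Chance gives about 1 in 20 groups only where values are normally distributed, which those of DUSP27 in O were not. DUSP27 in O of replicate 6 stood at 0.1726 CPM while the 8 others were at 0, which is a single count, so that count alone gave the flag. DUSP27 in I of replicate 8 was 25.84 CPM, against 11.06 CPM in the next library, and replicate 8 also had the highest reference share. PPP1R3C in I of replicate 2 was 452 CPM, against 262.5 CPM in the next.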

How the results depend on the processing

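Of 294 alternative values for fold changes of the members, 287 kept direction and side of the threshold. The others were TPM2 in O against S, at -0.012 to 0.21 with 1 animal left out (lowest without replicate 8), and PPP1R3C in muscle against I, at -0.76 without TMM, -0.20 with the replicate block, -0.02 without muscle replicate 4 and -0.20 to 0.24 with 1 animal left out. The block changed no call of a member. It moved the genes called in O against S from 430 to 1067. That count was 1005 at an FDR under 0.05, 743 with the likelihood ratio test, 814 with DESeq2 and 271 to 428 with 1 animal left out, lowest without replicate 5 or 9. Without TMM, called genes higher in the first group fell from 52.9% to 32.9% in I against O, from 53.6% to 35.5% in I against S, from 50.1% to 20.1% in muscle against I, from 47.1% to 16.2% against O and from 48.6% to 17.4% against S. The median share of TPM2 rose from 4.1% to 7.02% without TMM, with replicate 4 included in both, and was 4.05% after TMM without that replicate. The correlation of TPM2 with the reference sum in I lay between -0.0071 and 0.768 with 1 animal left out, and that of PPP1R3C between -0.057 and 0.293. The likelihood ratio test called TPM2 by sex in S (adjusted p = 6.5e-05), where the number of all genes it called was not recorded. The cause of these changes was not tested. DUSP27 without the count filter and the reference genes in place of marker genes were chosen after seeing the data, and shares from the marker genes were not run, since none was identified. Depth limits DUSP27 in O and S, at under 3 counts a library.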
